A study of Zea mays with 4 samples.

Results

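The secondary wall cellulose synthase genes cesa10, cesa11 and CesA12 and the brittle stalk gene bk2 with its relatives were compared between the maize lines F98908 and Cm489. Members were taken by a rule on gene names, which was chosen with earlier results of these data known. A probe set, the group of array probes that reports on 1 target sequence, was taken if its single gene symbol or a synonym was cesa10, cesa11 or cesa12 or began with bk2. This gave 6 of the 1108 genes that the array's annotation names, measured by 7 of 17621 maize probe sets. They are 3 cellulose synthases and the 3 COBRA-like genes bk2, Bk2L3 (measured by 2 probe sets) and Bk2L6.

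Each line was represented by 2 Affymetrix maize arrays, 4 in all, hybridised with cRNA made from total RNA of F98908 plants or of Cm489 plants. Per the labels, plants of both lines were 21 days old at the 7 leaf stage, were kept on potting compost at 50% humidity in days of 16 h light and 8 h dark, and no treatment is given; the tissue is labelled only aerial. The second F98908 array carries the extract label of the first (213 ug), while the Cm489 arrays have labels of their own (177 and 170 ug), and nothing says that a line's arrays come from separate plants. The p-values therefore measure only array-to-array spread, which may be technical. The study concerns cell wall diversity in maize, and its labels name the lignified cell types of the stem and their bearing on digestibility as its question.

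Cellulose is spun into the wall by rosette complexes at the plasma membrane, which are built from cellulose synthase catalytic subunits. Plants use one group of these subunits while cells expand and another when vessels, fibres and sclerenchyma lay down a secondary wall, and in maize cesa10, cesa11 and CesA12 belong to the second group. The gene bk2 encodes a COBRA-like protein, anchored to the outer face of the membrane by a lipid, and its loss leaves maize stalks and leaves brittle, with less cellulose in secondary walls. Maize carries further COBRA-like genes, named Bk2L for their likeness to bk2.

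None of the 6 tested probe sets passed the threshold of an adjusted p of 0.05 between the lines, against 15.3% of the 11263 probe sets tested, of which 7.27% were called higher and 8.02% lower in F98908. The measured difference, F98908 minus Cm489, was greatest for bk2, at 1.10 on the log2 scale, followed by cesa11 at 0.50 and cesa10 at 0.35. CesA12 had nearly equal means in the lines, and both probe sets of Bk2L3 had lower means in F98908, at ratios of 0.814 and 0.788. On each member probe set the Cm489 arrays lay further apart than the F98908 arrays, with cesa10, cesa11, CesA12 and bk2 all greater on Cm489 array 1. Over all tested probe sets the Cm489 arrays also lay further apart, with a median absolute difference of 0.206 log2 units against 0.131.

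**Figure D1:**
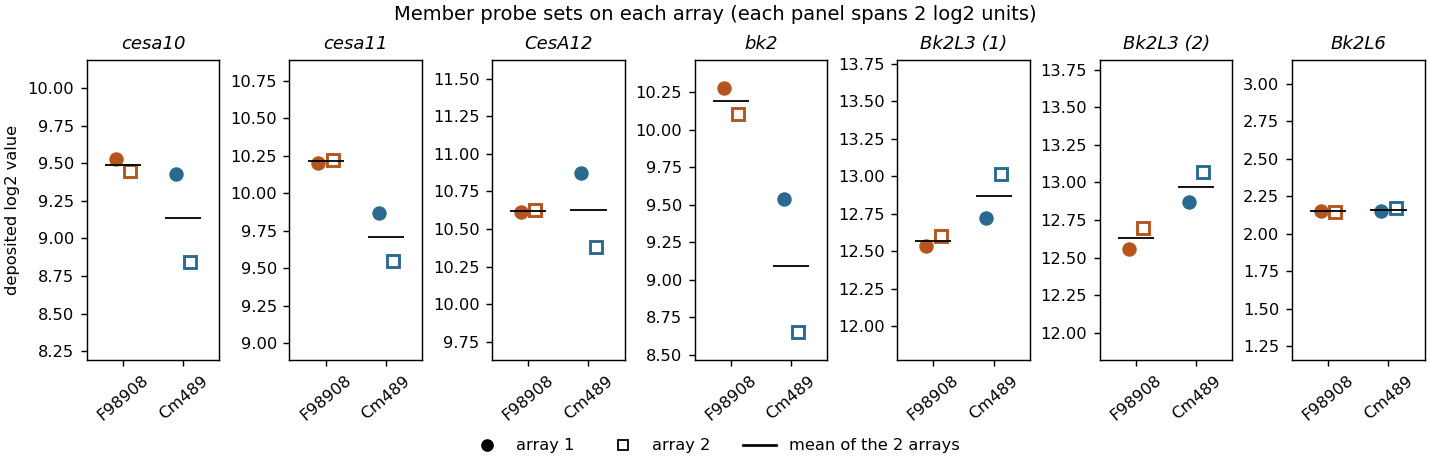
Deposited log2 value (vertical axis, 2 log2 units in each panel, with a range of its own) of the 7 member probe sets on the F98908 arrays (left, brown) and the Cm489 arrays (right, blue), with circles for array 1, squares for array 2 and a bar for the mean. The Cm489 points of cesa10, cesa11, CesA12 and bk2 are spread with array 1 on top, and the spread is widest for bk2 (9.54 and 8.65).

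Among the catalytic subunits, cesa10 (LOC542685) had log2 values of 9.53 and 9.45 on the F98908 arrays and of 9.43 and 8.85 on the Cm489 arrays. The lines did not overlap, but Cm489 array 1 lay just under the nearer F98908 array, and Cm489 array 2 stood apart from the other 3 arrays. The means were 9.49 ± 0.06 in F98908 and 9.14 ± 0.41 in Cm489 (SD, n = 2 arrays per line), a 1.28-fold ratio with a log2 difference of 0.35 ± 0.23 SE (limma, adjusted p = 0.381). The 95% interval of this difference ran from -0.31 to 1.02, so that neither equal levels nor a doubling in F98908 lies outside what these arrays allow. Without Cm489 array 1 the difference was 0.64 (adjusted p = 0.0756), and without Cm489 array 2 it was 0.059 (adjusted p = 0.754).

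For cesa11 (LOC542139) the F98908 arrays gave 10.20 and 10.22, and the Cm489 arrays 9.87 and 9.55. Both F98908 arrays lay above both Cm489 arrays, and the F98908 arrays were nearly equal. The mean was 10.21 ± 0.01 in F98908 and 9.71 ± 0.22 in Cm489 (SD, n = 2 arrays per line), and the log2 difference of 0.50 ± 0.15 SE is a 1.42-fold ratio (limma, unadjusted p = 0.0299, adjusted p = 0.112). Its 95% interval, from 0.08 to 0.93, is not corrected for the number of probe sets tested. The probe set is of the type whose probes match transcripts of more than 1 gene, so the value may include a near copy of cesa11.

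CesA12 (LOC542514) showed 10.61 and 10.63 on the F98908 arrays, between the Cm489 values of 10.87 and 10.38. The lines overlapped, with the F98908 arrays inside the Cm489 range. Means were 10.62 ± 0.01 in F98908 and 10.63 ± 0.35 in Cm489 (SD, n = 2 arrays per line), and the log2 difference was -0.0052 ± 0.20 SE (limma, adjusted p = 0.990). Its interval, from -0.58 to 0.57, leaves room for ratios between 0.668 and 1.49. The sign of this difference was not stable: it was 0.24 without Cm489 array 1 and -0.25 without Cm489 array 2.

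Of the COBRA-like genes, bk2 (LOC778435) was at 10.28 and 10.10 on the F98908 arrays and at 9.54 and 8.65 on the Cm489 arrays. Both F98908 arrays lay above both Cm489 arrays, and the gap between the Cm489 arrays was nearly as wide as the gap between the line means. Mean levels were 10.19 ± 0.12 in F98908 and 9.09 ± 0.63 in Cm489 (SD, n = 2 arrays per line), a 2.14-fold ratio with a log2 difference of 1.10 ± 0.34 SE (limma, unadjusted p = 0.0351, adjusted p = 0.123). The 95% interval of the ratio ran from 1.09 to 4.19, again without correction for the number of tests. The size depended on the Cm489 arrays: the difference was 1.54 without Cm489 array 1 and 0.65 without Cm489 array 2. The gene bk2 passed the threshold in the fit without Cm489 array 1. There the residual spread comes from the F98908 arrays alone, and the wide gap between the Cm489 arrays no longer counts. When the F98908 arrays were averaged into 1 sample, since their extract labels are the same, the adjusted p for bk2 was 0.393 and those of the other members were 0.395 or more.

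Bk2L3 (LOC541793) was measured by a pair of probe sets made from different target sequences, both of a type that matches several transcripts of 1 gene. The first gave 12.54 and 12.60 on the F98908 arrays and 12.72 and 13.01 on the Cm489 arrays. The second gave 12.56 and 12.70 on the F98908 arrays and 12.87 and 13.07 on the Cm489 arrays. On both, the F98908 arrays lay below the Cm489 arrays without overlap, and within each line array 2 was above array 1. The log2 differences were -0.30 ± 0.14 SE (adjusted p = 0.254) and -0.34 ± 0.13 SE (adjusted p = 0.174) by limma, with 95% intervals from -0.70 to 0.11 and from -0.71 to 0.024. Without Cm489 array 2 the first was -0.15 (adjusted p = 0.414). Centred on their own means, the 2 probe sets differed by a root mean square of 0.046 log2 units over the 4 arrays.

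Bk2L6 (LOC100037799) lay at 2.15 and 2.14 on the F98908 arrays and at 2.15 and 2.17 on the Cm489 arrays. These values are under the brightest of 23 control probe sets that have no maize target, which reached 2.45 to 2.50 depending on the array. Bk2L6 did not reach log2 4 on any array, the level that had to be passed on at least 2 arrays for a test, and so was not tested. Whether the transcript was absent or its probes gave no signal cannot be told apart here.

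**Figure D2:**
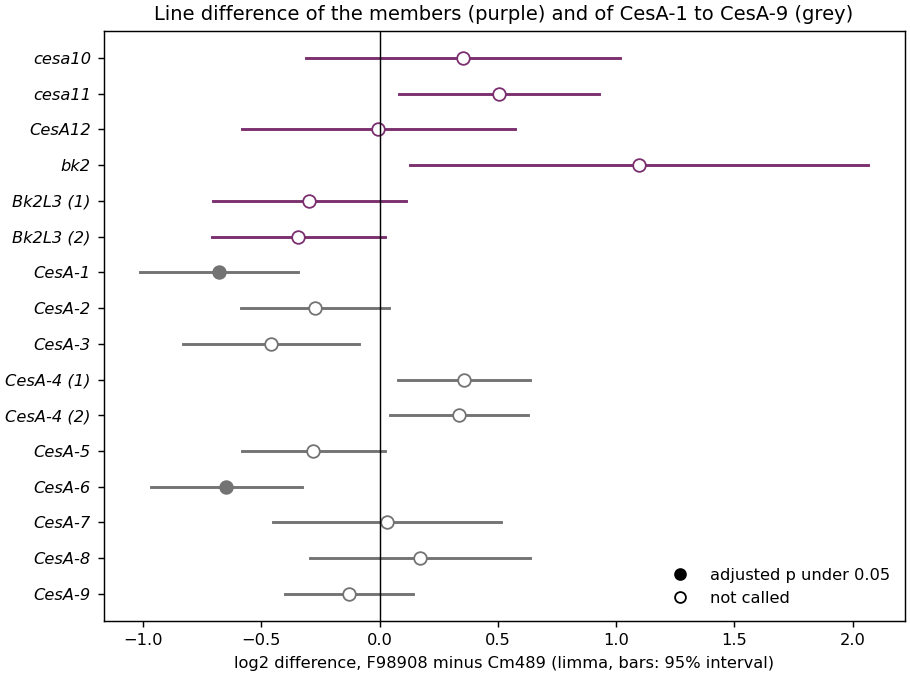
Log2 difference between the lines, F98908 minus Cm489 (horizontal axis), with its 95% interval from limma, for the 6 tested member probe sets (purple) and the 10 probe sets of CesA-1 to CesA-9 (grey). Filled points passed an adjusted p of 0.05; none of the members did, and CesA-1 and CesA-6 did, both below 0.

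Of the 6 tested member probe sets, 3 had both F98908 arrays above both Cm489 arrays (cesa10, cesa11 and bk2), 2 had both below (Bk2L3) and 1 overlapped (CesA12). Among all tested probe sets 63.9% did not overlap, 28.5% with F98908 higher and 35.4% with F98908 lower, so that a lack of overlap between 2 arrays and 2 arrays was common. An exact permutation test on 1 probe set cannot go below p = 0.333 with these numbers (two-sided). In size, a log2 difference at least as great as that of bk2 was seen in 13.4% of the tested probe sets. For cesa11 the share was 31.5%, for cesa10 43.1% and for the Bk2L3 probe sets 48.9% and 43.8%. The members' differences thus lay within the range of the bulk of the array, as the histogram of all tested probe sets shows.

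**Figure D3:**
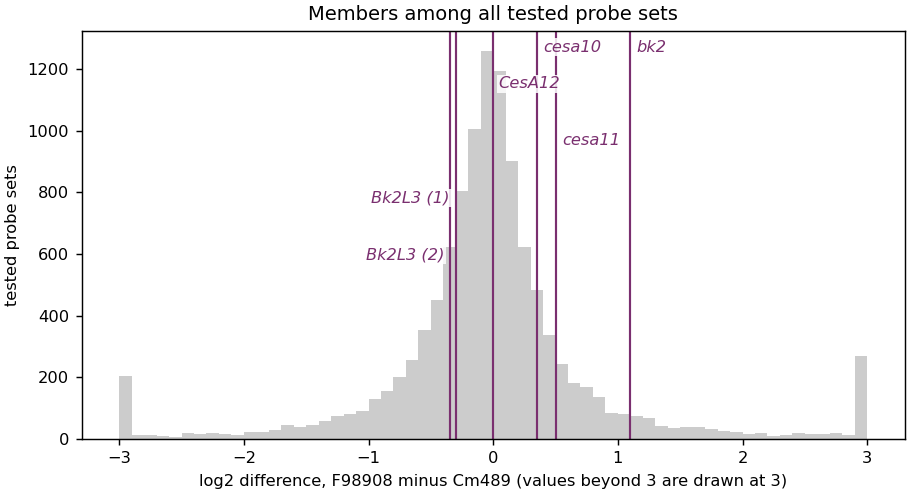
Number of tested probe sets (vertical axis) by log2 difference, F98908 minus Cm489 (horizontal axis, values beyond 3 drawn at 3), with a purple line at each tested member probe set. The line of bk2, at 1.10, lies on the right shoulder of the histogram, and the other 5 lie in its central part.

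The gap between the arrays of a line had one sign for bk2 and the cellulose synthases and the other for Bk2L3 in Cm489. In Cm489, array 1 minus array 2 was 0.89 for bk2, 0.58 for cesa10, 0.50 for CesA12 and 0.32 for cesa11 on the log2 scale. A gap of at least that size between the Cm489 arrays was found in 6.19% of the tested probe sets for bk2, in 14.0% for cesa10, in 18.4% for CesA12 and in 33.3% for cesa11. The Bk2L3 probe sets went the other way, with -0.29 and -0.20, sizes that 36.7% and 50.8% of the tested probe sets reached. In F98908 the gaps were smaller, 0.17 for bk2, 0.08 for cesa10, -0.02 for both cesa11 and CesA12, and -0.07 and -0.14 for Bk2L3. With 1 array on each side these gaps have no test.

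The cellulose synthases of expanding cells, CesA-1 to CesA-9, had mostly the opposite sign in that gap. Of their 9 genes, by the probe set with the highest mean, 8 were lower on Cm489 array 1 than on array 2. CesA-6 was the exception (0.13), and the median of the 9 was -0.12. Of all 11263 tested probe sets, 5843 were lower on Cm489 array 1. Some of the gaps were small, as for CesA-9 (-0.0063), a size that 97.4% of the tested probe sets reached. The 3 secondary wall genes had a median of 0.50, and all tested probe sets one of -0.0078. Between the lines, the median difference was 0.35 for the 3 secondary wall genes and -0.27 for the 9 others. Over all tested probe sets it was -0.03. Signs were mixed within the groups, with 2 of the 3 and 3 of the 9 differences above 0. CesA-4 had a difference of 0.34 on its brightest probe set and of 0.36 on the other. Without Cm489 array 2 the differences of cesa10, cesa11 and CesA12 were 0.059, 0.35 and -0.25. Without Cm489 array 1 they were 0.64, 0.66 and 0.24. Whether the groups of subunits differ from each other was not tested.

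**Figure D4:**
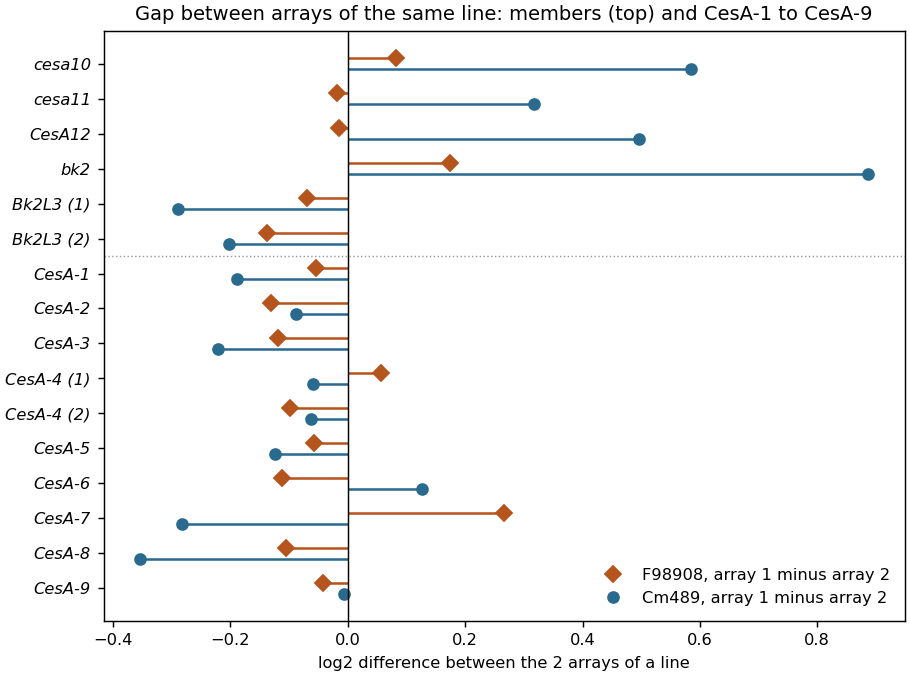
Log2 value of array 1 minus array 2 (horizontal axis) within F98908 (brown diamonds) and within Cm489 (blue circles), for the tested member probe sets above the dotted line and the probe sets of CesA-1 to CesA-9 below it. In Cm489 cesa10, cesa11, CesA12 and bk2 lie right of 0, up to 0.89, while 9 of the 10 other cellulose synthase probe sets lie left of it.

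Markers of other cell types also differed between the Cm489 arrays. Of all 11263 tested probe sets, 5420 were greater and 5843 were lower on Cm489 array 1 than on array 2. Of 7 outer layer genes 5 were tested, and all 5 were greater on Cm489 array 1, by 0.41 to 4.33 log2 units, among them ocl1, a homeodomain gene of the epidermis, at 8.43 and 4.12. Their summed level over the 7 genes, in units of 1000 on a linear scale, was 2.15 and 2.52 on the F98908 arrays and 4.65 and 2.68 on the Cm489 arrays. The markers ocl2 and gl1 stayed under log2 2.3 on every array, at 2.21 to 2.23 for ocl2. The 3 genes of the meristem list, kn1, lg3 and knox7, were all lower on Cm489 array 1, with gaps from -1.30 (lg3) to -0.19 (knox7). Their summed levels were 2.49 and 2.39 in F98908 and 2.36 and 3.81 in Cm489. The same probe set of knox7 is also counted below among the regulators of the secondary wall, so knox7 is not a marker of meristem alone in these lists. Both tested bundle sheath genes were lower on Cm489 array 1 too, with gaps from -1.21 to -0.34. Of the 2 tested mesophyll genes, 1 was greater and 1 lower on Cm489 array 1. The 5 monolignol genes were split, with 2 greater and 3 lower on that array and gaps from -0.31 to 0.33. The part of these genes in the values of the members was not tested. In bulk RNA, fewer cells of a type and less RNA per cell cannot be told apart.

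Likeness was also measured directly, as the root mean square difference of log2 values centred on each probe set's own mean over the 4 arrays. Among the members, cesa10 and cesa11 were closest, at 0.13 log2 units, with 14 of 724 other named genes closer to cesa10 and 30 closer to cesa11. CesA12 was 0.18 from cesa10 and 0.26 from cesa11. The gene bk2 was 0.36 from cesa11, 0.39 from cesa10 and 0.57 from CesA12, and 0.82 from each Bk2L3 probe set. Of the named genes, 32 were closer to bk2 than cesa11 was, and 520 or 525 were closer than the Bk2L3 probe sets. Seen from the other side, 370 of 724 named genes were closer to cesa11 than bk2 was and 402 were closer to cesa10, and the distance of 0.36 between bk2 and cesa11 was that of the median named gene from cesa11.

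The named genes closest to each member were not other members. For bk2 the second and the third closest were gst41, a glutathione transferase (0.21), and phb4, a prohibitin (0.25). Both gst41, with a difference of 1.27 (adjusted p = 0.0303), and phb4, with one of 0.85 (adjusted p = 0.0384), were called higher in F98908 by limma. Of the fits with 1 array left out, these genes kept the call only without Cm489 array 1, and elsewhere adjusted p was 0.0592 to 0.188 for gst41 and 0.0742 to 0.227 for phb4. For cesa10 the closest were sig2A, NBP and AGA3b, and for cesa11 pk4, rad51a, a recombinase, and elm1, which makes the chromophore of phytochrome, all within 0.072 log2 units and none called. Those of CesA12 were csr1, CRH and prpl35-1, at 0.040 to 0.063. For Bk2L3 they were ccp2, AK1 and sam2, an S-adenosylmethionine synthetase, on the first probe set. On the second they were ATPase (LOC541763, also named myosin1), sfp7 and again sam2. Distances for Bk2L3 were 0.012 to 0.030. These profiles rest on 4 arrays, and the lists describe them only.

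Around the members stand the genes that make, guide or stiffen the cellulose network, to be read against the 15.3% of all tested probe sets that were called and the 32.4% at an unadjusted p under 0.05. Over the whole cellulose synthase list of 12 genes, 2 fell in F98908 and 10 did not pass, with a median difference of -0.07, a count near that background. By limma 5 of the 12 had an unadjusted p under 0.05. CesA-1 fell to 10.91 ± 0.04 in F98908, against 11.58 ± 0.13 in Cm489 (limma, adjusted p = 0.0407), and CesA-6 to 10.51 ± 0.08, against 11.16 ± 0.09 (limma, adjusted p = 0.0405; SD, n = 2 arrays per line). Neither was called with any single array left out, where adjusted p ran from 0.0595 to 0.242 for CesA-1 and from 0.0827 to 0.245 for CesA-6. Of the 3 COBRA-like genes 0 were called by limma, with 1 of the 2 tested (bk2) at an unadjusted p under 0.05.

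Sucrose synthases split sucrose into fructose and UDP-glucose, the substrate of cellulose synthase. Of their 3 genes 2 were tested and 0 were called by limma, also 0 at an unadjusted p under 0.05, with sus1 at -0.16 (adjusted p = 0.379). Tubulins form the cortical microtubules along which cellulose synthase complexes travel. Of 10 tubulin genes 2 fell in F98908 and 8 did not pass, with a median of -0.22. By limma 4 of the 10 had an unadjusted p under 0.05. Differences were below 0 in 9 of the 10, and in 6056 of all 11263 tested probe sets. The beta-tubulin gene tub4 fell by 0.91 on the log2 scale (limma, adjusted p = 0.0302) and tub6 by 0.63 on its brightest probe set (limma, adjusted p = 0.0445). Neither was called with any single array left out, where adjusted p was between 0.0509 and 0.201 for tub4 and between 0.0760 and 0.257 for tub6. The only gene tested from the hemicellulose list was RGP, a reversibly glycosylated protein, with a difference of -0.23 (limma, adjusted p = 0.368).

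Lignin is laid into the same secondary walls. Of 5 monolignol genes 0 were called by limma, with 2 at an unadjusted p under 0.05, differences from -0.33 to 0.75 and a median of 0.06. The smallest p was that of 4CL, which activates cinnamic acids, at 10.18 and 10.40 in F98908 and 9.71 and 9.38 in Cm489 (adjusted p = 0.0691). Of 6 genes for lignin polymerization 2 were tested, and the peroxidase gene PER42 rose by 4.87 log2 units (limma, adjusted p = 0.00969). With single arrays left out its difference ran from 4.38 to 5.36, and it kept the call without F98908 array 2 (adjusted p = 0.0375) but not without F98908 array 1 (0.0519), Cm489 array 1 (0.0544) or Cm489 array 2 (0.0512). LAC1, a laccase gene, was at 2.08 and 2.06 in F98908 and 2.08 and 2.81 in Cm489 and was not tested. Limma called 0 of 2 tested regulators of the secondary wall, with 0 at an unadjusted p under 0.05. The regulator myb31 had a difference of -0.16 (adjusted p = 0.360) and knox7 one of -0.32 (adjusted p = 0.200). Of 10 tested expansin genes, which loosen walls, 2 rose and 8 did not pass, with a median of 1.75. By limma 8 of the 10 had an unadjusted p under 0.05. Differences were above 0 in 9 of the 10, and in 5207 of all 11263 tested probe sets. By probe set, 4 of 13 tested were called higher. Among them were dimmer probe sets of expA4 and expB8, whose brightest probe sets, used to count by gene, were not called. The called genes were expB5, which passed the filter through F98908 alone (7.64 and 8.45, against 2.14 and 2.15 in Cm489), and expB3, which lost its call without F98908 array 1 (adjusted p = 0.105) or F98908 array 2 (adjusted p = 0.104).

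The sampled material held transcripts of the leaf gene rbcS and of the meristem gene kn1, which do not by themselves show which tissues were taken. The Rubisco small subunit gene rbcS was at 11.77 and 11.53 in F98908 and at 11.95 and 12.29 in Cm489, and the meristem gene kn1 at 10.62 and 10.65 in F98908 and at 10.77 and 11.51 in Cm489. Markers of C4 leaf cells were mixed. The mesophyll gene pdk1 (LOC542759), a pyruvate phosphate dikinase, was at 9.76 and 9.69 in F98908 and at 9.38 and 8.88 in Cm489 on its brightest probe set (limma, adjusted p = 0.153). On the dimmer probe sets of pdk1 the lines overlapped. A related dikinase gene, PDK1 (LOC541677), was at 8.50 and 8.32 in F98908 and at 8.41 and 8.45 in Cm489 on its brightest probe set. Its other probe set was at 8.07 and 7.83 in F98908 and at 8.68 and 8.33 in Cm489, without overlap (limma, adjusted p = 0.132). In contrast pep1, phosphoenolpyruvate carboxylase, was at 1.86 on both F98908 arrays and at 5.44 and 1.91 in Cm489, so that only Cm489 array 1 passed log2 4, and ME1, NADP-malic enzyme, was at 2.99 on both F98908 arrays and on Cm489 array 1. Of the other marker lists, 0 of 2 tested mesophyll genes, 0 of 2 bundle sheath genes, 0 of 5 outer layer genes, 0 of 3 meristem genes and 0 of 1 kernel genes were called by limma, with 1, 0, 1, 0 and 1 at an unadjusted p under 0.05, a level that 32.4% of all tested probe sets reached. In the outer layer list gl8, a gene of wax synthesis, had the smallest p by limma (difference -0.77, adjusted p = 0.0717). In the kernel list it was the zein gene zp27 (difference 0.48, adjusted p = 0.0841). That probe set of zp27 was near the log2 4 limit, at 5.02 and 4.80 in F98908 and at 4.42 and 4.44 in Cm489. The other zp27 probe sets stayed under log2 4 on every array. The single root gene, zrp4, was at 3.14 and 2.48 in F98908, under the log2 4 limit, and at 10.99 and 10.78 in Cm489; it passed the filter through Cm489 alone (limma, adjusted p = 0.000798). Over the 11263 tested probe sets the median absolute difference was 0.131 log2 units between the F98908 arrays and 0.206 between the Cm489 arrays.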

How the data were processed

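The authors deposited 1 log2 value for each probe set and array, and the submitters' processing notes name GCRMA as the tool (version not given in the sources). GCRMA subtracts a background modelled on probe sequence, forces the arrays to one distribution and combines the probes of a set, so a difference in total RNA output is removed. Array controls (113 of 17734 probe sets) were left out. Names came from the platform annotation, with gene numbers looked up in RefSeq's table (assembly Zm-B73-REFERENCE-NAM-5.0); 1452 probe sets had 1 gene symbol. No build is named for the values, so no positions are given. Members and lists were chosen with earlier results of these data known.

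Probe sets with a log2 value over 4 on at least 2 of the 4 arrays (11263) were fitted with limma 3.58.1 in R 4.3.3 (lmFit, eBayes, two-sided, F98908 minus Cm489, Benjamini-Hochberg over all tested probe sets, threshold 0.05), checked on simulated data. Residual degrees of freedom were 2 and prior ones 1.79. List counts by gene used the probe set with the highest mean. Genes were named by rule: all members, called cellulose synthase and COBRA-like genes, called genes of the other lists (at most 5) or the one with the smallest p, and the 3 nearest named genes per member probe set, of which 1 is not reported here; LAC1, myb31, kn1, ocl1, ocl2, gl1, pep1, PDK1 and ME1 fall outside it and were picked with their values in view. The number of arrays limits the precision. Alternatives were another filter, a floor at log2 4, recentring, renewed quantile normalization, an intensity trend, leaving out probe sets that match several transcripts, F98908 as 1 sample, a replicate block and leaving out each array.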

Additional observations from a re-analysis of the deposited data

How the results depend on the processing

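None of the tested member probe sets was called under any of the 12 or 13 alternatives that could be run for each, except bk2 without Cm489 array 1. With single arrays left out the difference of bk2 ran from 0.65 to 1.54, that of cesa10 from 0.059 to 0.64 and that of CesA12 from -0.25 to 0.24. CesA12 also changed sign, to 0.059, with quantile normalization repeated; the cause was not tested. The other members kept their sign. Values for cesa11 and Bk2L3 could not be had without probe sets that match several transcripts. Over all probe sets, 819 were higher and 903 lower in F98908, and the counts were 248 and 170 with F98908 as 1 sample, which leaves 3 samples. They were 505 higher with a mean over log2 6, where fewer probe sets are tested, and from 257 to 543 higher and from 176 to 536 lower with single arrays left out. In these fits the spread of a lone array's line is assumed to be that of the other. With the replicate number as a block the counts were 409 and 371, and no member was called (bk2, adjusted p = 0.132). The labels give the numbers no shared batch, and deviations of same-numbered arrays from their line means correlated at -0.365 over probe sets. With the numbers crossed, an alternative added after seeing the data, 889 were higher and 973 lower.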
